A study of Homo sapiens with 35 samples.

Results

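The genes described here are 10 components of epithelial cell-cell adhesion, taken by symbol from a table of 28503 genes: the classical cadherins CDH1 and CDH3, the adhesion molecule EPCAM, the junction plaque genes DSP, JUP, PKP2 and PKP3, and the desmosomal cadherins DSC2, DSC3 and DSG2. Their RNA was measured in DU145 cells, a long-established line of prostate carcinoma from a brain metastasis. Of the 35 samples of the study, the 6 RNA-seq libraries were used, and the 29 chromatin samples were not analysed here. All cells carried a short hairpin RNA, with 2 libraries for each of 3 hairpin targets: luciferase (shLuciferase, the control), ZMYND8 (shZMYND8) and JARID1D (shJARID1D). ZMYND8 is a chromatin reader of modified histone tails, and JARID1D, encoded by the Y-linked gene KDM5D, is a histone H3 lysine 4 demethylase. The study asked how these proteins bear on genes linked to metastasis. The labels give no hairpin sequence, no time after knockdown and no second hairpin per target, and are silent on whether replicate libraries stem from independent cultures. The p-values rest on the variation among the 6 libraries alone, and this variation may be technical.

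Epithelial cells are held to their neighbours by adherens junctions, in which classical cadherins bind each other outside the cell and catenins inside it, and by desmosomes, in which desmogleins and desmocollins take the place of the classical cadherins. Inside a desmosome, plakoglobin and the plakophilins bind the cadherin tails, and desmoplakin ties them to keratin filaments. Loss of E-cadherin and of desmosome components is a known feature of epithelial cells that turn mesenchymal, and EPCAM is widely used as a marker of carcinoma cells.

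The libraries held deposited counts of 22925611 to 25001300 each. All 10 genes had enough counts to be tested among 15867 genes, with deposited counts from 88.1 for PKP2 in shZMYND8 replicate 2 to 9941 for DSG2 in shLuciferase replicate 1. Levels are in CPM, counts scaled to the same library total and not divided by gene length, so they are compared between libraries and not between genes. The targeted genes stood at 35.5 and 33.2 CPM of ZMYND8 in shZMYND8 against 64.7 and 52.7 CPM in shLuciferase, and at 19.6 and 17.9 CPM of KDM5D in shJARID1D against 58.1 and 61.0 CPM. ZMYND8 passed the test as lower (edgeR adjusted p = 0.00491), except with shZMYND8 replicate 2 left out (0.0581). As a check of the cell type, the simple epithelial keratins KRT7, KRT8, KRT18 and KRT19 summed to 1588 to 3319 CPM per library. The luminal prostate gene KLK2 had no counts in any library.

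In shZMYND8, 4 of the 10 genes fell and 1 rose against shLuciferase, at an edgeR adjusted p under 0.05. The genes that fell were EPCAM, DSP, PKP2 and PKP3, and the gene that rose was CDH1. Among all genes tested, 7.34% were lower and 8.89% higher by the same rule. In shJARID1D none of the 10 passed in either direction, against 2.79% of all genes tested lower and 2.96% higher. In a bulk library, a smaller number of cells that express a gene and less of its RNA per cell cannot be told apart.

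**Figure D1:**
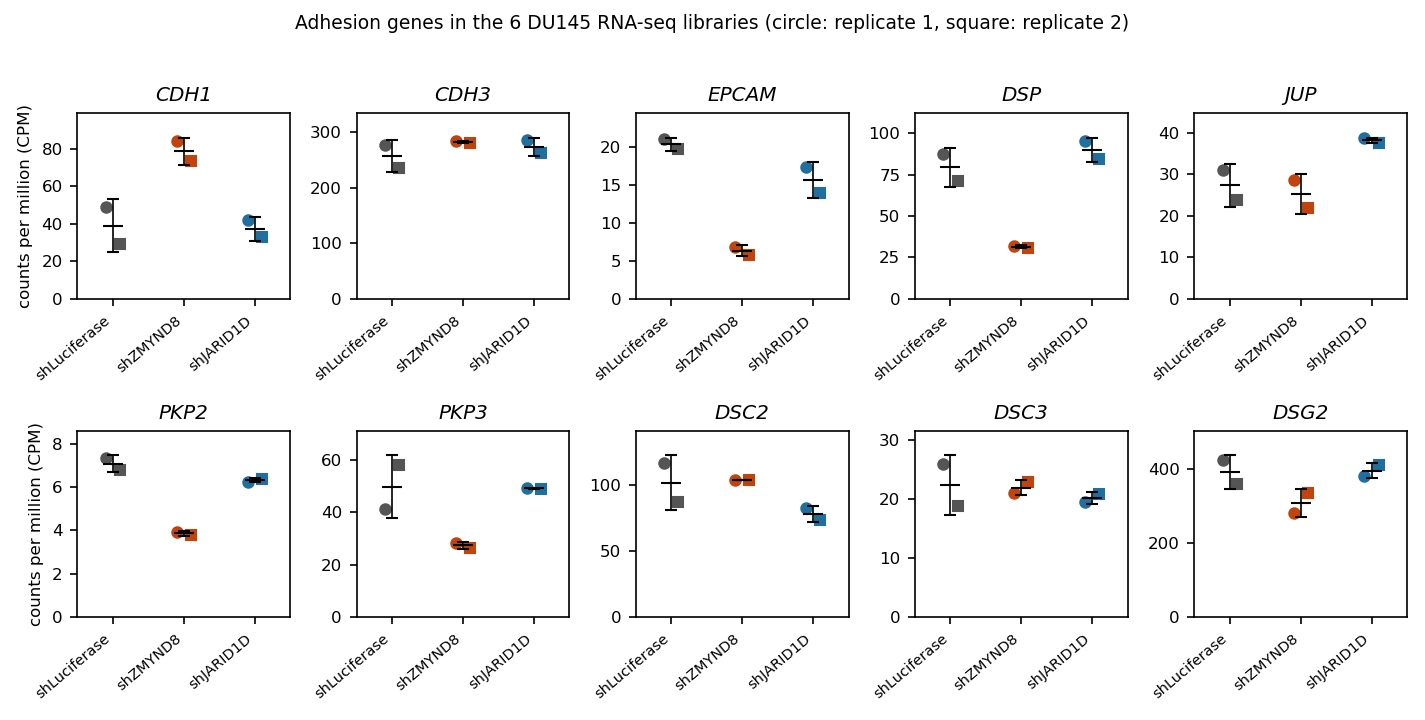
Level of each gene in CPM (vertical axes, from 0) in the 6 libraries, with circles for replicate 1, squares for replicate 2, and black bars for the mean and SD of the 2 libraries of a group. Both shZMYND8 libraries lie below all 4 others for EPCAM, DSP, PKP2, PKP3 and DSG2, and above all 4 others for CDH1.

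CDH1 encodes E-cadherin, the main cadherin of epithelial adherens junctions. It stood at 48.9 and 29.0 CPM in shLuciferase, 83.8 and 73.6 CPM in shZMYND8, and 41.8 and 32.7 CPM in shJARID1D. Both shZMYND8 libraries were higher than all 4 others, while the shLuciferase and shJARID1D libraries overlapped. The shLuciferase libraries differed from each other by 1.69-fold, the widest gap within a group for any of the 10 genes. Against the controls, CDH1 rose 2.02-fold in shZMYND8 (log2 fold change 1.01 ± 0.22 (SE, n = 2 libraries per group), edgeR adjusted p = 0.0130). The call was lost without shZMYND8 replicate 1 (0.91, adjusted p = 0.103) and without shZMYND8 replicate 2 (1.102, adjusted p = 0.0539). Over the 6 single-library omissions the adjusted p ran from 0.000513 to 0.103. In shJARID1D the log2 fold change was -0.06, with a 95% interval of -0.56 to 0.43.

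CDH3, the neighbour of CDH1 on chromosome 16 in the GRCh38.p14 annotation, encodes P-cadherin, a classical cadherin of basal epithelial cells. It stood at 277 and 236 CPM in shLuciferase, 284 and 281 CPM in shZMYND8, and 286 and 262 CPM in shJARID1D. The shZMYND8 libraries were narrowly above both controls, and the shJARID1D libraries overlapped with both other groups. The log2 fold change was 0.14 in shZMYND8 (95% interval -0.14 to 0.41, edgeR adjusted p = 0.489) and 0.09 in shJARID1D (-0.18 to 0.37, adjusted p = 0.690). The ratio of CDH1 to CDH3, taken within each library, was 0.176 and 0.123 in shLuciferase, 0.295 and 0.261 in shZMYND8, and 0.146 and 0.125 in shJARID1D.

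EPCAM encodes a surface glycoprotein of epithelial cells that takes part in cell-cell adhesion and signalling. It stood at 21.0 and 19.8 CPM in shLuciferase, 6.90 and 5.84 CPM in shZMYND8, and 17.4 and 13.97 CPM in shJARID1D. The 3 groups did not overlap: shZMYND8 was lowest and shLuciferase highest. Against the controls, EPCAM fell 3.20-fold in shZMYND8 (log2 fold change -1.68 ± 0.17 (SE), edgeR adjusted p = 0.000546), the largest fall of the 10 genes. Leaving out each of the 6 libraries in turn gave -1.81 to -1.57, past the threshold each time. In shJARID1D the log2 fold change was -0.38 ± 0.16 (SE), with an unadjusted p of 0.0371 and an edgeR adjusted p of 0.180. EPCAM and CDH1, both surface adhesion genes of epithelial cells, moved in opposite directions in shZMYND8. Their ratio, EPCAM to CDH1, was 0.430 and 0.682 in shLuciferase, 0.0823 and 0.0794 in shZMYND8, and 0.416 and 0.427 in shJARID1D.

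DSP encodes desmoplakin, the plaque protein that anchors keratin filaments to the desmosome. It stood at 87.7 and 71.0 CPM in shLuciferase, 32.1 and 30.8 CPM in shZMYND8, and 95.2 and 84.7 CPM in shJARID1D. Both shZMYND8 libraries were below every other library, and the shJARID1D libraries overlapped with the controls. DSP fell 2.52-fold in shZMYND8 against the controls (log2 fold change -1.33 ± 0.14 (SE), edgeR adjusted p = 0.000562). It stayed past the threshold with each library left out, from -1.48 to -1.18. In shJARID1D it differed by 0.18 (95% interval -0.11 to 0.48, edgeR adjusted p = 0.448).

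The region upstream of DSP is shown beside that of DSG2, because both hold the hexamer CACCTG more than once. An upstream region of JUP also holds it 2 times. CACCTG, or CAGGTG on the other strand, is the core sequence bound by SNAI and ZEB repressors. Both sequences are the 250 bases before the RefSeq transcript start in GRCh38.p14, on the plus strand, at chr6:7541421-7541670 for DSP and chr18:31497927-31498176 for DSG2, 5′ to 3′, with CACCTG and CAGGTG in capitals.
DSP: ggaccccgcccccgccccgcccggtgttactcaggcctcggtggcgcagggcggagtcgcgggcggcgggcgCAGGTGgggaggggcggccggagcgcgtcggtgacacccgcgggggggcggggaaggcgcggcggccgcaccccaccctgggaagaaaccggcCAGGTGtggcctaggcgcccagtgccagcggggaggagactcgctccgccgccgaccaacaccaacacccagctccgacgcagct
DSG2: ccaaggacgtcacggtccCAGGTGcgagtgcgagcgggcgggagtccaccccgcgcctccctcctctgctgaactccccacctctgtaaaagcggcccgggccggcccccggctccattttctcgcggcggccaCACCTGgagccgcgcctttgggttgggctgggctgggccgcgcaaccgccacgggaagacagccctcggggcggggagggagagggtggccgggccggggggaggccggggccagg
In DSP the hexamer lies 178 to 173 and 85 to 80 bases before the start, and in DSG2 it lies 232 to 227 and 116 to 111 bases before it. The RefSeq promoter table matched 5 of the 10 genes (DSP, JUP, DSC2, DSC3 and DSG2) with 7 entries. CACCTG on either strand was in 4 of these 7 entries and in 17.5% of all 35116 promoters of the same length. GGGCGG, the core of the GC box, was in 5 of 7 against 42.6% of all. CCAAT was in 2 of 7 against 32.0%, AACCGG, part of the site of grainyhead-like factors, in 2 of 7 against 5.99%, and TATAAA in 0 of 7 against 10.7%. Within the 100 bases before the start, CACCTG was in 2 of 7 entries, against 6.78% of all promoters. These matches describe the letters of the sequence only. Binding to them was not measured here, and a link between them and the levels of these genes was not tested.

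JUP encodes plakoglobin, the armadillo protein found in both desmosomes and adherens junctions. It stood at 30.9 and 23.7 CPM in shLuciferase, 28.5 and 21.8 CPM in shZMYND8, and 38.6 and 37.6 CPM in shJARID1D. Both shJARID1D libraries were above all others, and the other 2 groups overlapped. The log2 fold change was -0.12 in shZMYND8 (95% interval -0.49 to 0.26, edgeR adjusted p = 0.687). In shJARID1D it was 0.48 ± 0.17 (SE), with an unadjusted p of 0.0167 and an edgeR adjusted p of 0.120. Without shLuciferase replicate 1 JUP passed in shJARID1D (0.68, adjusted p = 0.0239), and over the single-library omissions its adjusted p ran from 0.0239 to 0.397. The ratio of DSP to JUP within each library, 2 plaque genes of the desmosome, was 2.84 and 2.996 in shLuciferase, 1.12 and 1.41 in shZMYND8, and 2.47 and 2.25 in shJARID1D. The shZMYND8 libraries had the lowest ratios.

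The plakophilins PKP2 and PKP3 bind desmoplakin and cluster the desmosomal cadherins. PKP2 stood at 7.37 and 6.81 CPM in shLuciferase, 3.94 and 3.78 CPM in shZMYND8, and 6.26 and 6.39 CPM in shJARID1D. PKP3 stood at 41.4 and 58.4 CPM, 28.3 and 26.5 CPM, and 49.3 and 49.2 CPM in the same order of groups. For both genes the shZMYND8 libraries were the lowest. In shJARID1D, PKP2 lay below the controls without overlap and PKP3 lay between the 2 controls. In shZMYND8, PKP2 fell 1.84-fold against the controls (log2 fold change -0.88 ± 0.19 (SE), edgeR adjusted p = 0.0122), and PKP3 fell 1.82-fold (-0.87 ± 0.16 (SE), adjusted p = 0.00687). Both calls rested on having both shZMYND8 libraries. PKP2 had an adjusted p of 0.0880 without replicate 1 and 0.0931 without replicate 2 (0.0142 to 0.0931 over the single-library omissions). PKP3 had 0.0584 and 0.0686 (0.000431 to 0.0686). In shJARID1D their log2 fold changes were -0.17 (95% interval -0.57 to 0.24) and -0.02 (-0.37 to 0.33).

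The desmosomal cadherins DSC2, DSC3 and DSG2 form the adhesive part of the desmosome and lie in a single cluster on chromosome 18, with DSC3 next to DSC2. DSC2 stood at 116 and 86.9 CPM in shLuciferase, 104 and 104 CPM in shZMYND8, and 82.4 and 73.5 CPM in shJARID1D. DSC3 stood at 25.9 and 18.8 CPM, 21.0 and 22.8 CPM, and 19.5 and 20.9 CPM. The shZMYND8 libraries lay between the 2 controls for both desmocollins, and the shJARID1D libraries lay below both controls for DSC2 only. DSG2 stood at 423 and 358 CPM in shLuciferase, 282 and 335 CPM in shZMYND8, and 380 and 411 CPM in shJARID1D. Both shZMYND8 libraries were below all 4 others for DSG2.

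None of the 3 cadherins passed the test in shZMYND8. The log2 fold change was 0.03 for DSC2 (95% interval -0.30 to 0.36), -0.03 for DSC3 (-0.39 to 0.33) and -0.34 for DSG2 (-0.65 to -0.04, unadjusted p = 0.0313, edgeR adjusted p = 0.117). DSG2 passed without shLuciferase replicate 2 (-0.46, adjusted p = 0.0443, with 0.0443 to 0.527 over the single-library omissions). In shJARID1D the log2 fold change was -0.38 ± 0.15 (SE) for DSC2 (unadjusted p = 0.0275, edgeR adjusted p = 0.155), -0.15 for DSC3 and 0.02 for DSG2. DSC2 passed there without shLuciferase replicate 2 (-0.58, adjusted p = 0.0186, with 0.0186 to 0.504 over the omissions). The ratio of DSP to DSG2 was 0.207 and 0.198 in shLuciferase, 0.114 and 0.0920 in shZMYND8, and 0.250 and 0.206 in shJARID1D.

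**Figure D2:**
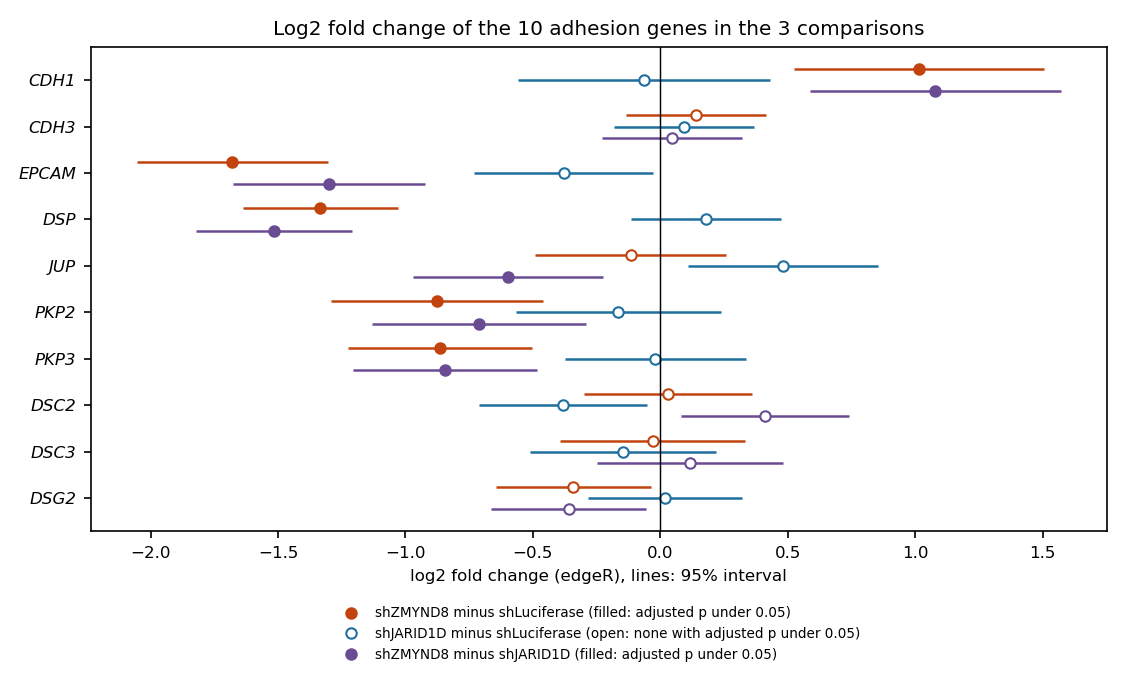
Log2 fold change (horizontal axis) of the 10 genes in the 3 comparisons, with lines for the 95% interval and filled points for an edgeR adjusted p under 0.05. EPCAM at -1.68 and DSP at -1.33 lie farthest below 0 in shZMYND8 and CDH1 at 1.01 above it, while no gene is filled for shJARID1D against shLuciferase.

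Over the 10 genes, the median log2 fold change was -0.23 in shZMYND8, against -0.01 over all genes tested. The shZMYND8 and shLuciferase libraries did not overlap for 7 of the 10, against 57.8% of all genes tested. In shJARID1D the median was -0.04, against 0.00 over all genes. There 4 of the 10 did not overlap with the controls (EPCAM, JUP, PKP2 and DSC2), against 51.9% of all genes. For shJARID1D 0 of the 10 passed with DESeq2 and with limma voom as well, and 3 of the 10 had an unadjusted edgeR p under 0.05. Both comparisons use the same shLuciferase libraries. The counts in shZMYND8 depended on the libraries: 2 genes were lower and 0 higher without shZMYND8 replicate 1, the same numbers without shZMYND8 replicate 2, and 5 were lower without shLuciferase replicate 2.

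**Figure D3:**
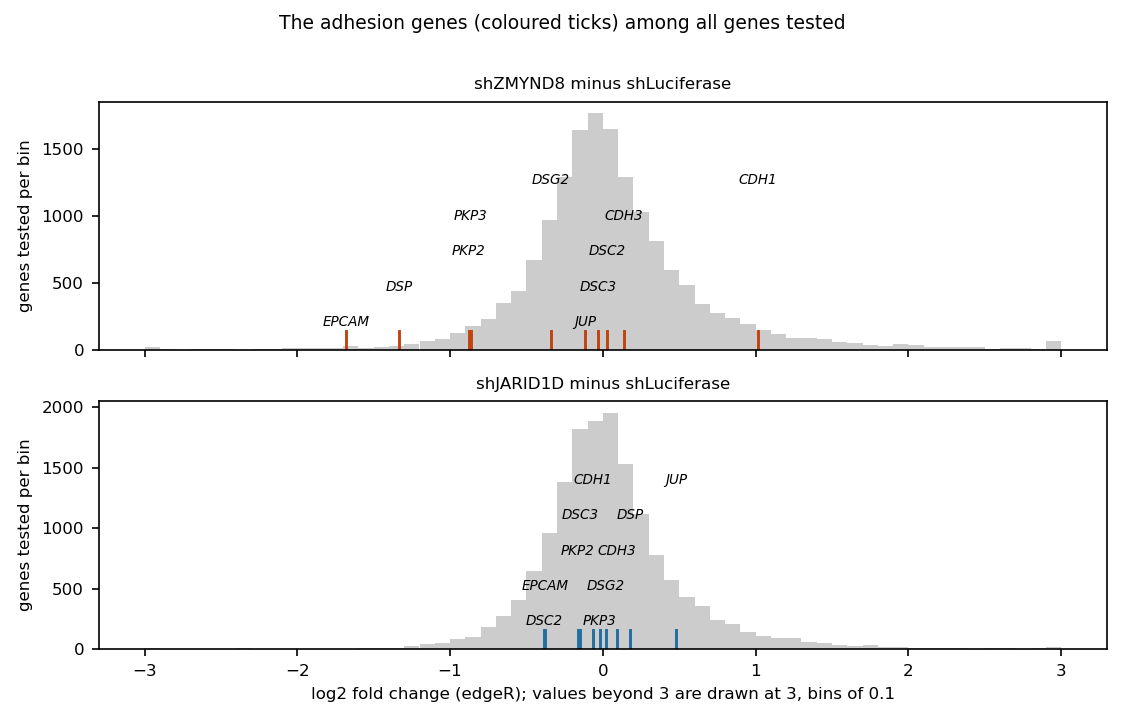
Number of genes tested (vertical axes) by log2 fold change (horizontal axis, bins of 0.1) in shZMYND8 and in shJARID1D against shLuciferase, with a coloured tick for each of the 10 genes. In shZMYND8 the ticks run from -1.68 for EPCAM to 1.01 for CDH1, and in shJARID1D from -0.38 for DSC2 to 0.48 for JUP.

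Whether the effects of the 2 knockdowns differed was tested by comparing them directly, where the shared controls cancel. In shZMYND8 against shJARID1D, 5 of the 10 genes were lower and 1 higher, against 7.02% of all genes tested lower and 8.67% higher. EPCAM (log2 difference -1.30 ± 0.17 (SE), edgeR adjusted p = 0.00183) and DSP (-1.52 ± 0.14, adjusted p = 0.000425) were lower in shZMYND8, as were PKP3 (-0.85 ± 0.16, adjusted p = 0.00898), PKP2 (-0.71 ± 0.19, adjusted p = 0.0318) and JUP (-0.60 ± 0.17, adjusted p = 0.0391). CDH1 was higher (1.08 ± 0.22, adjusted p = 0.0118). The cadherins CDH3, DSC2, DSC3 and DSG2 did not pass, at 0.05, 0.41, 0.12 and -0.36. Both groups' libraries did not overlap for 9 of the 10 genes, with CDH3 the exception, against 65.4% of all genes tested.

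The difference between the knockdowns stayed past the threshold for EPCAM (-1.46 to -1.13) and DSP (-1.60 to -1.42) with each of the 6 libraries left out. The other 4 calls were lost with some libraries left out, where a group is left with 1 library. Leaving out either shZMYND8 library ended those of CDH1 (adjusted p = 0.0892 and 0.0582), JUP (0.0669 and 0.278), PKP2 (0.144 and 0.177) and PKP3 (0.0651 and 0.0888). Leaving out shJARID1D replicate 1 ended those of JUP (0.167), PKP2 (0.126) and PKP3 (0.0576). Leaving out shJARID1D replicate 2 ended the same 3 (0.149, 0.145 and 0.0549) and that of CDH1 (0.103). Without either shLuciferase library, DSC2 also passed as higher (0.41 each time, adjusted p = 0.0121 and 0.0128) and DSG2 as lower (-0.36 each time, adjusted p = 0.0452 and 0.0445). JUP lost its call without the filter on low counts (-0.61, adjusted p = 0.0828) and PKP2 with DESeq2 (-0.71, adjusted p = 0.0573).

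**Figure D4:**
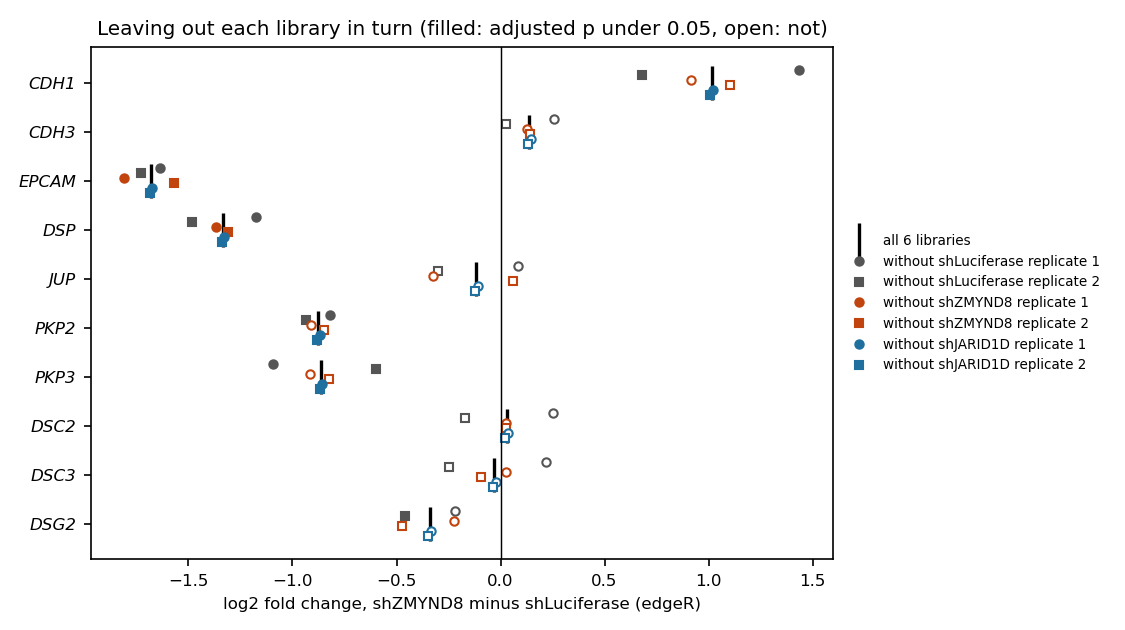
Log2 fold change in shZMYND8 against shLuciferase (horizontal axis) of each gene with all 6 libraries (black bar) and with each library left out (points, filled where the edgeR adjusted p is under 0.05). EPCAM and DSP are filled throughout, while CDH1, PKP2 and PKP3 are open without either shZMYND8 library.

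Genes with the profile most like that of a given gene were sought among 10309 genes tested with a mean of at least 5 CPM, by the root mean square difference of log2 CPM, each centred on its own mean over the 6 libraries. The 4 genes with the widest range over the libraries were EPCAM (1.83), DSP (1.62), CDH1 (1.53) and PKP3 (1.14), in log2 units. Among the nearest 3 to EPCAM were C1orf116 (difference 0.177) and NUF2 (0.195), and the nearest to DSP were TSTD1 (0.0831), CSPG4 (0.102) and FKBP10 (0.119). CDH1 was nearest to ARRDC3 (0.0621), IL20RB (0.125) and ZNF818P (0.128), and PKP3 to FZD2 (0.0580), PLEKHG5 (0.0677) and MBD1 (0.0755). The other 9 genes were not among the nearest 3 for any of these 4. Ranked by Pearson correlation instead, ARRDC3 alone of the neighbours named here stayed among the nearest 3. The 6 points of each profile share their libraries, so these are descriptions.

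Other genes of the same structures were read from lists. The counts of calls in these lists are to be read beside the shares of all genes tested. These were 7.34% lower and 8.89% higher in shZMYND8, and 2.79% lower and 2.96% higher in shJARID1D. Of 10 further desmosome genes, 6 had enough counts and 3 of these fell in shZMYND8, with a median of -0.56 over the 6. PPL, which encodes periplakin, stood at 41.6 and 36.5 CPM in shLuciferase and at 16.2 and 16.9 CPM in shZMYND8, 2.36-fold lower (log2 fold change -1.24 ± 0.13 (SE), edgeR adjusted p = 0.000562). PKP1, another plakophilin, stood at 4.22 and 5.10 CPM and at 1.33 and 1.80 CPM (-1.57 ± 0.27, adjusted p = 0.00447). EVPL, which encodes envoplakin, stood at 64.0 and 86.4 CPM and at 45.4 and 49.0 CPM (-0.67 ± 0.16, adjusted p = 0.0184). PERP, CDSN and KAZN did not pass, at -0.23, -0.44 and 0.46. Without shZMYND8 replicate 1 only PPL of the 3 passed (PKP1 adjusted p = 0.0580, EVPL 0.151), and without replicate 2 EVPL did not (0.0922). The other desmosomal cadherins DSC1, DSG1, DSG3 and DSG4 reached at most 0.514 CPM in any library and were not tested. In shJARID1D EVPL was lower (-0.64 ± 0.16, adjusted p = 0.0455), a call that held only without shLuciferase replicate 1 among the libraries left out (adjusted p 0.00477 to 0.306) and was lost under 6 other settings, without the filter among them (0.0990).

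Of 15 further adherens junction genes, 12 were tested and 0 passed in shZMYND8 (2 with an unadjusted p under 0.05), with a median of -0.04 and a range of -0.19 to 0.49. The highest was the nectin gene PVRL1 (also NECTIN1), an adhesion receptor of adherens junctions, at 24.1 and 30.2 CPM in shLuciferase, 35.1 and 41.0 CPM in shZMYND8, and 22.9 and 27.4 CPM in shJARID1D. The shZMYND8 libraries were above all 4 others. PVRL1 did not pass against shLuciferase (0.49 ± 0.16 (SE), edgeR adjusted p = 0.0615), but did with DESeq2 (adjusted p = 0.0493), upper quartile factors (0.0442), library totals only (0.0401), a minimum mean count of 50 (0.0467) and a replicate block (0.00894). Without shLuciferase replicate 2, 2 of the 12 genes passed as higher, PVRL1 among them (0.66, adjusted p = 0.0169). In shZMYND8 against shJARID1D PVRL1 was higher (0.60 ± 0.16, edgeR adjusted p = 0.0311), a call lost without either shZMYND8 library (0.0871 and 0.218), without either shJARID1D library (0.210 and 0.0845) and without the filter on low counts (0.0668). The catenin genes, singled out after their values were seen, were at 0.23 for CTNNA1, -0.05 for CTNNB1 and 0.02 for CTNND1 on the log2 scale. In shJARID1D 0 of the 12 passed (2 with an unadjusted p under 0.05), with a median of 0.00, and 1 was lower without shLuciferase replicate 1. Of 11 other classical or related cadherins, CDH15 and CDH24 were tested and neither passed. CDH2, the neuronal cadherin that mesenchymal cells often gain, was at 0 to 0.128 CPM in all 6 libraries, no more than the level of 3 counts in any of them.

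**Figure D5:**
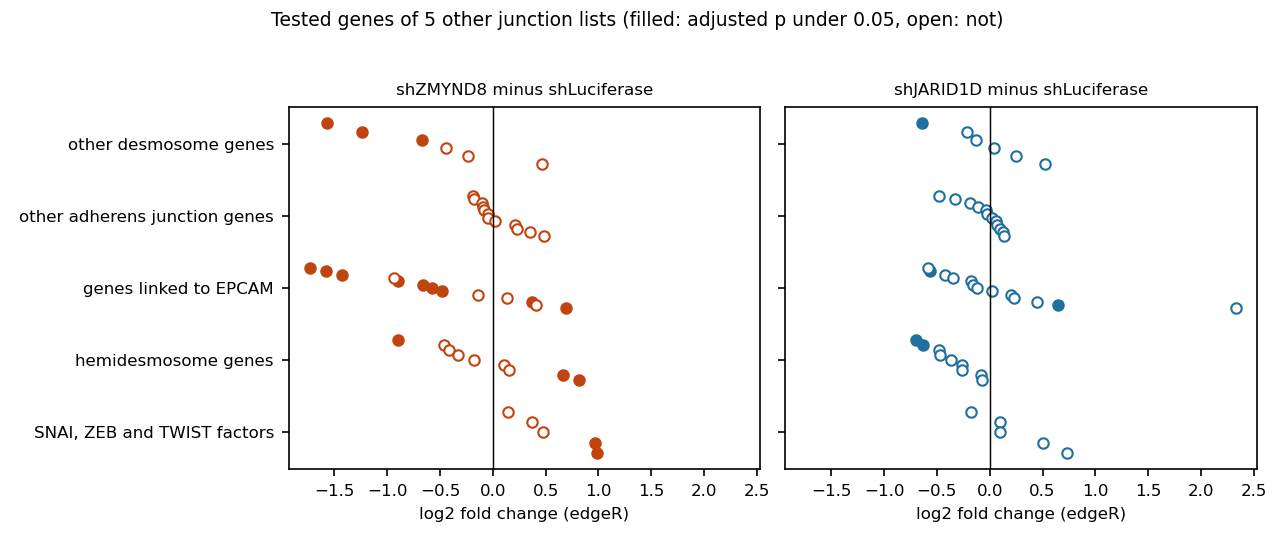
Log2 fold change (horizontal axes) of the tested genes of 5 other lists in each knockdown against shLuciferase, with filled points for an edgeR adjusted p under 0.05. In shZMYND8 the desmosome list has 3 filled points, all below 0, and the adherens junction list has none.

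Of 13 genes linked to EPCAM, 7 fell and 2 rose in shZMYND8, with a median of -0.57. CLDN7, a claudin that binds EPCAM, fell by 1.73 ± 0.30 (SE) in log2 units (edgeR adjusted p = 0.00520), and the serine protease gene ST14, whose product cleaves EPCAM, fell by 1.43 ± 0.25 (adjusted p = 0.00556). SPINT2, an inhibitor of that protease, fell by 0.90 ± 0.13 (adjusted p = 0.00255). The genes that rose were ADAM17, a sheddase that cleaves EPCAM (0.69 ± 0.13, adjusted p = 0.00684), and CD44 (0.37 ± 0.11, adjusted p = 0.0490). Without shZMYND8 replicate 1 the counts were 3 lower and 0 higher, and the same without shZMYND8 replicate 2. ST14 lost its call without replicate 1 (adjusted p = 0.0682) and CLDN7 without replicate 2 (0.0521), while SPINT2 kept its call with each library left out. CD44 also lost its call without shLuciferase replicate 2 (0.0931), without shJARID1D replicate 1 (0.0956) or replicate 2 (0.108), and with relative log expression factors (0.0532), no filter (0.0790) or only the 2 groups compared (0.0992). In shJARID1D ADAM17 rose (0.65 ± 0.13, adjusted p = 0.0236) and FHL2, which binds the cleaved tail of EPCAM, fell by 0.57 ± 0.14 (adjusted p = 0.0483). Both of these calls were lost without either shJARID1D library (adjusted p up to 0.154 and 0.344) and without either shZMYND8 library (0.0525 and 0.0557 for ADAM17), and that of FHL2 without shLuciferase replicate 2 (0.0893). Without the filter on low counts neither passed (0.0610 and 0.0963). FHL2 was lower in shZMYND8 as well, at -0.59 to -0.54 under 11 alternatives other than leaving out a library. It passed there under all 11, against 6 of 11 in shJARID1D. Its call in shZMYND8 was lost without either shZMYND8 library and without shLuciferase replicate 2. In shZMYND8 against shJARID1D, FHL2 was at -0.05 to 0.00 under the same 11.

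Among 6 transcription factors that repress epithelial adhesion genes, 5 were tested and 2 rose in shZMYND8. SNAI2 stood at 2.81 and 2.27 CPM in shLuciferase, 5.27 and 4.81 CPM in shZMYND8, and 5.10 and 3.34 CPM in shJARID1D, with a log2 fold change of 0.99 ± 0.27 (SE) in shZMYND8 (edgeR adjusted p = 0.0329). ZEB2 stood at 2.30 and 2.27 CPM, 3.56 and 5.37 CPM, and 2.53 and 2.36 CPM, at 0.96 ± 0.27 in shZMYND8 (adjusted p = 0.0377). ZEB2 lost its call with any of the 6 libraries left out (adjusted p up to 0.291) and SNAI2 without either shZMYND8 library (0.182 and 0.117) and without shLuciferase replicate 2 (0.0883). Without the filter on low counts neither passed (0.0615 for SNAI2 and 0.0620 for ZEB2), and ZEB2 did not pass with DESeq2 (0.0592). SNAI1, ZEB1 and TWIST2 did not pass, at 0.47, 0.14 and 0.37, and TWIST1 had no counts in any library. None of the 5 passed in shJARID1D.

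Of 13 epithelial factors, 10 were tested, and 2 fell and 1 rose in shZMYND8, against 7.34% of all genes tested lower and 8.89% higher. ESRP2, an epithelial splicing regulator, stood at 28.7 and 36.4 CPM in shLuciferase, 13.7 and 18.6 CPM in shZMYND8, and 11.4 and 11.96 CPM in shJARID1D. Both knockdowns lay below the controls. ESRP2 was 2.02-fold lower in shZMYND8 (log2 fold change -1.01 ± 0.18 (SE), edgeR adjusted p = 0.00498) and 2.79-fold lower in shJARID1D (-1.48 ± 0.18, adjusted p = 0.00702). Its call in shZMYND8 was lost without shZMYND8 replicate 1 (-0.81, adjusted p = 0.0635), and its call in shJARID1D without shJARID1D replicate 1 (adjusted p = 0.0662) or replicate 2 (0.0529). The other 2 calls were in OVOL2, at 1.02 and 0.471 CPM in shLuciferase against 0.129 and 0.172 CPM in shZMYND8, and in OVOL1, at 0 and 0.0428 CPM against 0.771 and 0.472 CPM, levels of few counts. Each met the filter on low counts through the group where it was high, so these calls were not independent of the filter. Deposited counts of OVOL1 were 17.5 and 10.6 in shZMYND8 and at most 2.98 elsewhere. Those of OVOL2 were 24.1 and 11.0 in shLuciferase and at most 10.4 elsewhere. OVOL1 lost its call without shZMYND8 replicate 1 (log2 fold change 4.16). OVOL2 lost its call with any library but shLuciferase replicate 2 left out (-2.73 to -1.62 over the omissions). It also lost it without the filter on low counts (edgeR adjusted p = 0.0710) and with limma voom (adjusted p = 0.0516).

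Desmosomes end on keratin filaments inside the cell, and hemidesmosomes anchor the same filaments to the basement membrane. Of 7 keratin genes, 5 were tested and 1 fell in shZMYND8: KRT19, at 385 and 537 CPM in shLuciferase and 199 and 214 CPM in shZMYND8 (log2 fold change -1.16 ± 0.16 (SE), edgeR adjusted p = 0.00184). Without shLuciferase replicate 1, KRT7 was at -0.51 and KRT8 at -0.77. With a replicate block 2 keratins were lower and 1 was higher, KRT17. KRT17 stood at 0.213 and 0.0428 CPM in shLuciferase and at 0.771 and 0.558 CPM in shZMYND8, levels of few counts. It met the filter on low counts only through the knockdown groups, so its call was not independent of the filter. In shJARID1D 3 keratins fell, KRT7 by 0.82 ± 0.17, KRT8 by 0.86 ± 0.21 and KRT18 by 0.67 ± 0.15 (adjusted p from 0.0256 to 0.0465), and none of these calls held without either shJARID1D library or either shZMYND8 library. Without shLuciferase replicate 2 KRT8 and KRT18 were at -0.49 each and lost their calls. Without the filter on low counts, or with only the 2 groups compared, none of the 3 passed. KRT8 also lost its call with upper quartile factors (edgeR adjusted p = 0.0504), unquantified genes kept at 0 (0.0524) and limma voom (adjusted p = 0.0510). Of 9 hemidesmosome genes in shZMYND8, ITGB4 fell (-0.90 ± 0.12, adjusted p = 0.00160), COL17A1 rose (0.81 ± 0.17, adjusted p = 0.0112) and LAMB3 rose (0.67 ± 0.17, adjusted p = 0.0284), the last 2 losing their calls without either shZMYND8 library. LAMB3 also lost its call without shLuciferase replicate 1 (0.43, adjusted p = 0.0690) and without the filter (0.0660). The number lower rose from 1 to 3 without shLuciferase replicate 1 and with DESeq2, and to 4 with a replicate block. PLEC was lower under each of these (-0.69, -0.46 and -0.44, adjusted p = 0.00756, 0.0343 and 0.0153). In shJARID1D, ITGA6 (-0.63 ± 0.15, adjusted p = 0.0455) and PLEC (-0.70 ± 0.17, adjusted p = 0.0438) were lower, and with a library left out both passed only where that library was shLuciferase replicate 1. Neither passed without the filter (edgeR adjusted p = 0.0973 for ITGA6 and 0.0963 for PLEC) or with only the 2 groups compared (0.0555 and 0.0695). ITGA6 also lost its call with upper quartile factors (0.0501).

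Markers of other cell types were low. A list of 6 fibroblast genes summed to 1.41 to 2.26 CPM in shLuciferase, 5.74 to 6.05 CPM in shZMYND8 and 2.36 to 3.68 CPM in shJARID1D. Its member DCN had no counts in any library. The 3 members with enough counts were all higher in shZMYND8 than in shLuciferase, without overlap, against 57.8% of all genes tested without overlap. COL3A1 and PDGFRB reached the level of the filter in both libraries of a group only in shZMYND8. Their direction was therefore not independent of the filter. The log2 fold changes of all 3 were 1.61 to 1.93, each with an unadjusted edgeR p under 0.05. Of these, COL1A1 alone passed (1.65 ± 0.42, edgeR adjusted p = 0.0260). That call was lost without either shZMYND8 library (0.136 and 0.103), without shLuciferase replicate 2 (0.0756) and without the filter (0.0637). A list of 4 endothelial genes summed to 0.468 to 0.514 CPM in shLuciferase, 1.157 to 1.159 CPM in shZMYND8 and 0.471 to 0.643 CPM in shJARID1D, and none had enough counts to be tested. A list of 4 leukocyte genes summed to 1.07 to 1.32 CPM, 1.37 to 1.80 CPM and 2.01 to 2.44 CPM in the same order, and CD14, the member with enough counts, did not pass. The part of these differences in the results above was not tested.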

How the data were processed

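RNA-seq libraries of DU145 cells (2 per group, grouped by the labels) were read from a Cuffdiff gene table. The authors deposited expected counts, that is estimates for every gene in each library. Tools in the submitters' processing notes are Cuffdiff, TopHat2 2.0.12, edgeR 3.12.0 and Bowtie 1.1.2, with the build hg19 and no roles. Columns named Rac7_KO were taken as shZMYND8, since an antibody label of the series ties RACK7 to ZMYND8. The deposited counts carry a scaling, in which 1 fragment has a value of 0.881 to 1.16 by library. The labels do not give strandedness, so reads of CDH3, DSP, DSC2, DSC3 and DSG2 cannot be told apart from those of long noncoding RNA genes that overlap them in GRCh38.p14, and EPCAM holds MIR559.

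Counts were rounded and tested with the quasi-likelihood F test of edgeR 4.0.16 under R 4.3.3 (TMM factors, filterByExpr, Benjamini-Hochberg over 15867 genes of 28443, threshold 0.05). The fit used all 6 libraries (3 residual degrees of freedom), and the biological coefficient of variation common to all genes was 12.3%. CPM values use the TMM library sizes. The 60 genes marked as not quantified in any library were left out, and the 18 variance columns were not used. The level of 3 counts was 0.128 to 0.129 CPM, counting error only.

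The 10 genes, the gene lists and the rule for named genes were chosen with earlier results of these data known. Named were the 10 genes, the targets, up to 4 genes per list and comparison past the threshold by smallest adjusted p, all tested SNAI, ZEB and TWIST factors, and the 3 nearest profiles. A few genes that this rule names are not reported here. Of the list genes, 97 matched by current symbol and 5 by a RefSeq synonym. Alternatives were relative log expression and upper quartile factors, library totals only, no filter, a minimum mean count of 50, limma voom (limma 3.58.1), DESeq2 1.42.0, only the groups compared, a replicate block, the deposited scaling undone, unquantified genes kept at 0, and leaving out each library. The scripts were tested on simulated data. A planned comparison of protein sequences was not run. Tables and figures were made with matplotlib 3.10.9, pandas 2.3.3 and numpy 2.4.6 in Python 3.11.15.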

Additional observations from a re-analysis of the deposited data

How the results depend on the processing

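Under 11 alternatives other than leaving out a library, the 5 calls among the 10 genes in shZMYND8 against shLuciferase all held. Of 330 values of the 10 genes over the 3 comparisons, 324 kept their side of the threshold, 2 lost a call (JUP and PKP2 in the direct comparison, given above) and 4 gained one. No called value changed sign. Of 180 values with a library left out, 152 kept their side, 21 lost a call and 7 gained one. Values near 0 that were not called, such as JUP, DSC2 and DSC3 in shZMYND8, changed sign with the library left out.

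With a library left out, the number of the 10 genes lower in shZMYND8 against shLuciferase ran from 2 to 5 and higher from 0 to 1. In shJARID1D both the lower and the higher count ran from 0 to 1. In the direct comparison the lower count ran from 2 to 6 and the higher from 0 to 2. Over all genes tested, calls ran from 642 to 3222 (2574 with all libraries), from 16 to 2145 (912) and from 551 to 4191 (2490) in the same order. Without the filter on low counts, 204 genes passed in shJARID1D and 1560 in the direct comparison. With only the 2 groups compared these were 449 and 4252, and 2 of the 10 genes were higher in the direct comparison.

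Replicate numbers are shared between groups, but nothing in the labels pairs the libraries. Deviations of same-numbered libraries from their group means correlated at 0.0925, 0.170 and 0.0969 between the groups. With a replicate block, 2073 genes passed in shJARID1D and 3785 in the direct comparison, 1 of the 10 genes (JUP, 0.49, adjusted p = 0.0265) was higher in shJARID1D, and 2 were higher in the direct comparison (CDH1 and DSC2). With 2 libraries per group, many calls were lost where a group was left with 1 library, in some cases whichever of its libraries was left out. PKP2 in shZMYND8 against shLuciferase is an example. Its log2 fold change was -0.91 without shZMYND8 replicate 1 and -0.85 without replicate 2.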
